A study of Mus musculus with 12 samples.

Results

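Creb1 and Crem are the genes whose loss is named in the title of a microarray study of the mouse hippocampus. Every probe set annotated to Creb1 or Crem alone was taken, whatever its level, which gave 1 probe set for each gene among 12411 probe sets (7542 genes with a symbol of their own). The Creb1 probe set was well above the level required for testing, which was 4 on the log2 scale, to be exceeded on 3 or more of 12 arrays. The Crem probe set was below that level on each of the 12 arrays, so 1 of the 2 probe sets was among the 6334 tested.

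Each array (Affymetrix MG-U74B) carried hippocampal RNA pooled from 3 animals, and 3 arrays made up each of 4 groups. The groups were control mice with saline, control mice with kainate, mutant mice with saline and mutant mice with kainate, and the animals were killed 1 h after an intraperitoneal injection. Kainate, which excites neurons through glutamate receptors and can cause seizures, was given at 20 mg/kg, and the mice were littermates of both sexes aged 5 to 6 weeks. The labels state neither the alleles, the strain and the Cre driver nor what the controls carry, so it is not known here which cells lost which part of either gene. The place of the probes relative to any removed exon is likewise not known, and a signal from outside a removed part is no check of the deletion. Because the genotype is known here from the labels alone, the mutant arrays are called labelled mutant. The Creb1 signal, which was higher and not lower in them, is no test of the labels.

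As background, CREB, the product of Creb1, is a leucine zipper transcription factor that binds cAMP response elements in promoters. Phosphorylation by kinases such as PKA and CaMKIV lets it recruit the coactivators CBP and p300, and CRTC proteins assist it. CREM, the product of Crem, is its close relative and can take its place when CREB is missing. Crem also has an internal promoter that is switched on by cAMP and by neuronal activity and makes ICER, a short repressor without the activation domain.

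The sequence just before the start of Creb1 is shown because its product is a factor whose own binding motif can be looked for there. It covers chr1:64532554-64532793 (RefSeq, GRCm38.p6, plus strand, 240 bases), with the match to the GC box GGGCGG in capitals.

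Creb1 upstream: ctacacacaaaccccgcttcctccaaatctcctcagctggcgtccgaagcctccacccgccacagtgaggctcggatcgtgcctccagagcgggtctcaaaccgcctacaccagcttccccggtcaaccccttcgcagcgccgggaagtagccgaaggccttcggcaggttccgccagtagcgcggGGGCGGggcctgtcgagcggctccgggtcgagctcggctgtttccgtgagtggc

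This window had a GC content of 67.1%, against a median of 52.1% over windows of the same length and place in 32851 promoter entries. On either strand it held 1 GC box, 54 bases before the gene start, and 31.3% of all entries held at least 1. It held no match to the full cAMP response element TGACGTCA (1.44% of entries), none to its shorter form TGACG, which is contained in the full element (16.9%), and none to the CCAAT box (33.0%). These are matches of letters in this window only.

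Creb1 was higher in labelled mutant than in control arrays with either treatment. In control saline arrays its log2 values were 7.58, 7.51 and 6.94 for replicate numbers 1, 2 and 3. In control kainate arrays they were 7.14, 6.97 and 6.83. In labelled mutant saline arrays they were 8.33, 8.26 and 8.10, and in labelled mutant kainate arrays 8.47, 7.64 and 7.82. The genotypes did not overlap, since the highest control array (7.58) lay 0.053 below the lowest labelled mutant array (7.64). Of the 6334 tested probe sets, 0.332% likewise had all 6 labelled mutant arrays above all 6 control arrays. In RNA of pooled tissue, more cells of a type and more RNA per cell cannot be told apart.

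**Figure D1:**
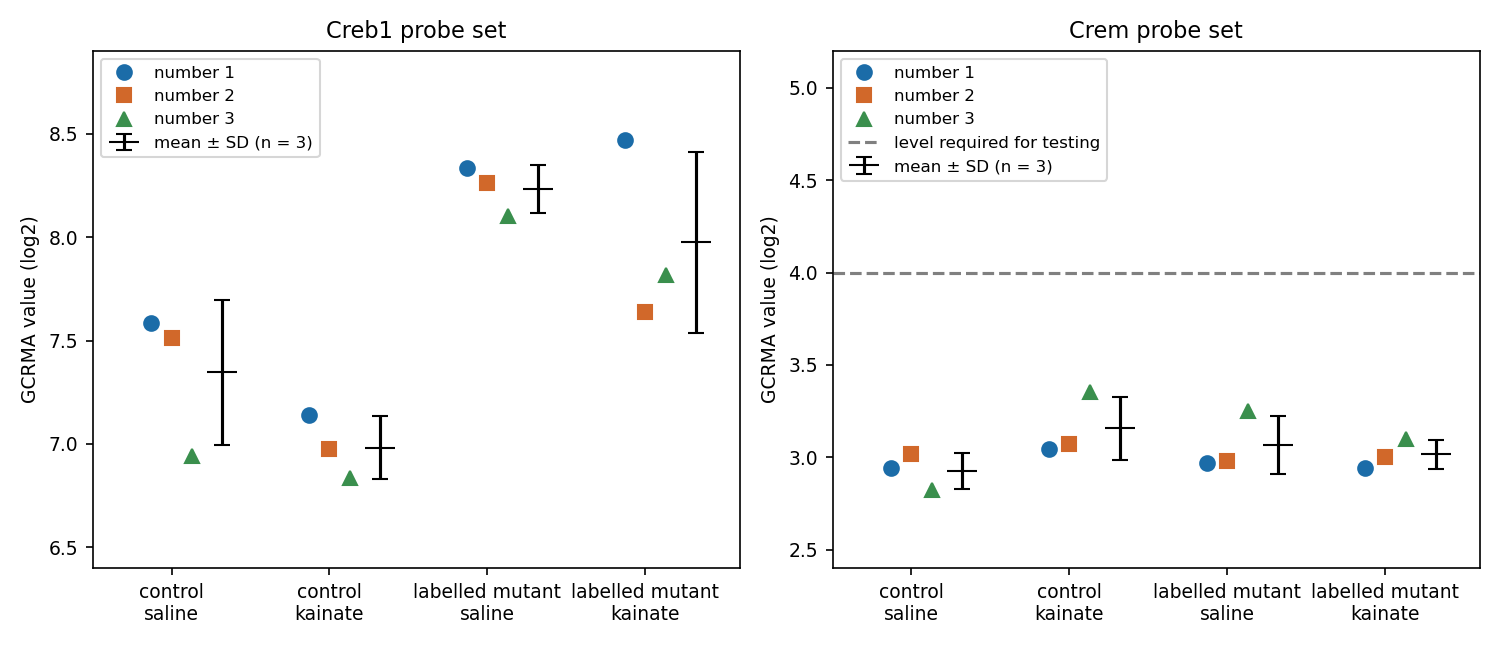
GCRMA values (log2) of the Creb1 (left) and Crem (right) probe sets on the 12 arrays by group, with the symbol showing the replicate number and the black mark the mean ± SD of 3 arrays. All 6 labelled mutant arrays lay above all 6 control arrays for Creb1, and every Crem value was below the dashed testing level of 4.

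Over both treatments the mean Creb1 value was 8.10 ± 0.32 (SD, n = 6) in labelled mutant arrays and 7.16 ± 0.313 in control arrays. The difference was 0.94 on the log2 scale (1.92-fold, SE 0.162, 95% interval 0.58 to 1.30). It was larger than the spread between arrays by an exact two-sided permutation test of genotype within treatment (p = 0.005, the smallest that the 400 arrangements can give). That test took no account of the replicate number. In the limma fit over all 6334 probe sets the adjusted p was 0.0502, at the edge of the 0.05 threshold. With the replicate number as a block the same difference passed (adjusted p = 0.00413, 95% interval 0.69 to 1.19). The calls in this comparison made up 0.253% of tested probe sets without the block and 2.32% with it. Creb1 ranked 18th by p without the block and 10th with it, and 15 probe sets had a larger difference.

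The Creb1 value was higher in the labelled mutant array of every pair of arrays with the same treatment and replicate number. The smallest difference between labelled mutant and control was 0.66 (kainate, number 2) and the largest 1.33 (kainate, number 1). Of all tested probe sets, 4.45% were higher in the labelled mutant array in all 6 pairs. For the 6 pairs the exact two-sided sign-flip permutation gave p = 0.0312, the smallest possible. Within replicate number 1, 2 and 3 the mean difference was 1.04, 0.71 and 1.07. The array with number 1 had the highest Creb1 value in 4 of 4 groups, and the genotype difference stood beside this offset in each number.

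Taken treatment by treatment, the Creb1 differences were close in size, 0.89 with saline (95% interval 0.38 to 1.39) and 0.99 after kainate (0.48 to 1.50). Neither passed the limma test over all probe sets (adjusted p = 0.523 and 0.391, or 0.0751 and 0.0545 with the block). With saline 0% of tested probe sets passed without the block and 0.142% with it. The unadjusted p was under 0.05 for 246 and 570 of them. After kainate 0.0632% passed, or 0.111% with the block. With saline 22 and after kainate 19 of 6334 probe sets differed by more than Creb1.

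**Figure D2:**
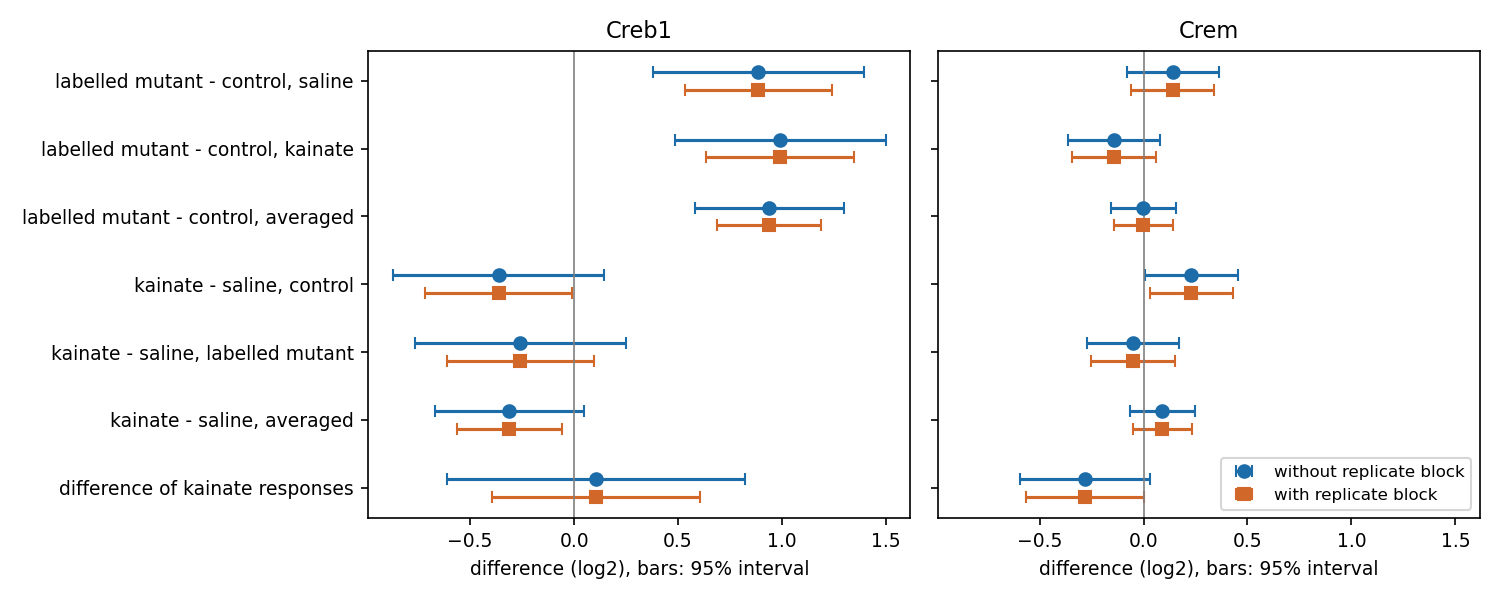
Differences (log2) of Creb1 and Crem for the 7 comparisons with 95% intervals from limma, without (circles) and with (squares) the replicate number as a block. The 3 Creb1 intervals for genotype lie above 0, from 0.38 at the lowest bound to 1.50 at the highest, and the Crem estimates lie between -0.28 and 0.23.

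Kainate left Creb1 slightly lower in most pairs, without a call. In control arrays the differences between kainate and saline for numbers 1, 2 and 3 were -0.44, -0.54 and -0.11. In labelled mutant arrays they were 0.14, -0.63 and -0.29, so 1 of the 6 pairs went the other way. The mean difference was -0.36 in control (95% interval -0.87 to 0.14, limma adjusted p = 0.485) and -0.26 in labelled mutant arrays (-0.77 to 0.25, adjusted p = 0.976). Averaged over genotypes it was -0.31 (95% interval -0.67 to 0.05, adjusted p = 0.405, or 0.106 with the block), and the exact two-sided permutation test gave p = 0.09. With 1 array left out at a time, the exact permutation p ran from 0.02 to 0.2 and was not under 0.05 in 10 of 12 cases. The other 2 cases were without the labelled mutant kainate array numbered 1 (-0.43, exact permutation p = 0.02) and without the control saline array numbered 3 (-0.41, exact permutation p = 0.04). Calls made up 0.158% of tested probe sets for kainate in control, 0.174% in labelled mutant and 0.41% averaged, or 0.584%, 0.363% and 7.63% with the block.

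The kainate response of Creb1 was not found to differ between genotypes. The difference of the responses was 0.10 (95% interval -0.61 to 0.82, limma adjusted p = 1), an interval that allows differences in either direction. No probe set passed in this comparison (0% of those tested, also with the block). The unadjusted p was under 0.05 for 147 without the block and for 566 with it.

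Crem stayed below the testing level in every group. Its values for numbers 1, 2 and 3 were 2.94, 3.02 and 2.82 in control saline arrays and 3.05, 3.07 and 3.35 in control kainate arrays. In labelled mutant arrays they were 2.97, 2.98 and 3.25 with saline and 2.94, 3.00 and 3.10 with kainate. The 12 values spanned 0.53 log2 units and the groups overlapped, with control arrays between 2.82 and 3.35 and labelled mutant arrays between 2.94 and 3.25. With the controls already under the level, a loss of Crem transcript was not detectable with this probe set. Whether the probes cover ICER is not known here.

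Since Crem was below the testing level, its differences come from a fit over all 12411 probe sets. Averaged over treatments, labelled mutant and control arrays differed by -0.00098 (95% interval -0.16 to 0.16, limma adjusted p = 1), and the exact two-sided permutation p was 0.995. The difference was 0.14 with saline (-0.08 to 0.36, adjusted p = 0.475) and -0.14 after kainate (-0.36 to 0.08, adjusted p = 0.506). Kainate against saline gave 0.23 in control (0.01 to 0.45, adjusted p = 0.166) and -0.05 in labelled mutant arrays (-0.27 to 0.17, adjusted p = 0.86). The array numbered 3 carried most of the control value, with a kainate difference of 0.53 against 0.10 and 0.06 for numbers 1 and 2. The kainate responses of Crem differed by -0.28 between genotypes (-0.60 to 0.03, adjusted p = 0.221). These values were smaller on other scales. With quantile normalization and with median centring, kainate in control gave 0.06 and 0.09, genotype with saline 0.03 and 0.05, genotype after kainate -0.04 and -0.05, and the difference of responses -0.07 and -0.09.

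The Crem value followed the median of its array. Across the 12 arrays Pearson's r between the Crem value and the array median was 0.985 (permutation p = 1e-05, the smallest that 100000 permutations can give) and Spearman's rho was 0.958 (permutation p = 2e-05). Adjusted over the 2 relations computed, these were 2e-05 and 4e-05. Without the 2 arrays farthest from the middle median r was 0.976. Among the 6077 probe sets below the testing level the median r with the array median was 0.927, and 7.17% had an r at least as high as Crem. Relative to its array median, Crem lay between -0.95 and -0.71, with an SD of 0.0628 over the 12 arrays against 0.143 for the values as deposited. For Creb1 the same relation gave r = -0.174 (permutation p = 0.589, adjusted 0.589), rho = -0.273 (p = 0.39, adjusted 0.39) and r = -0.0586 without the 2 farthest arrays.

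**Figure D3:**
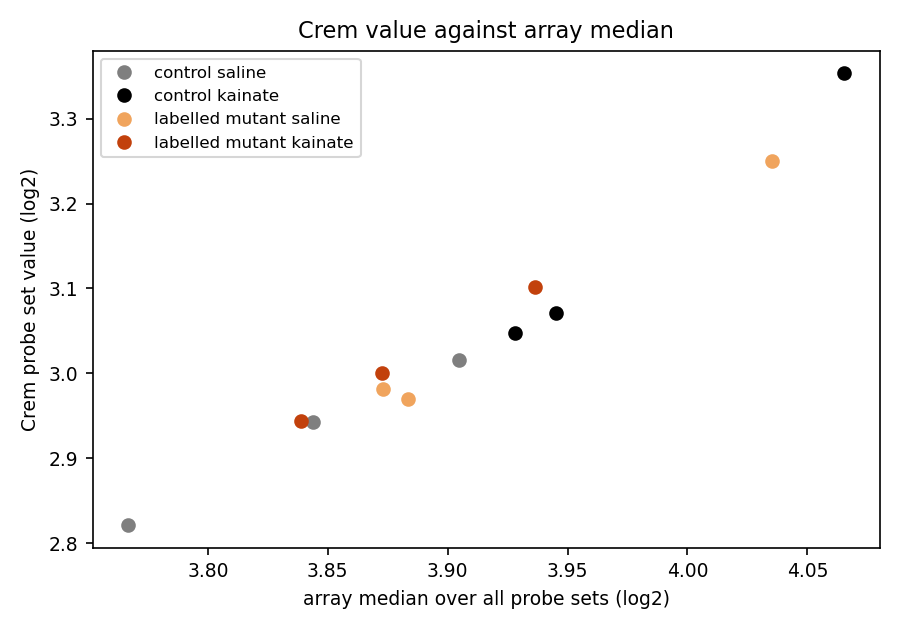
Crem probe set value (log2) against the median of all 12411 probe sets on the same array (log2), 1 point per array, coloured by group. The points lie close to a line (r = 0.985), with the control kainate array numbered 3 (3.35) at the upper end and the control saline array numbered 3 (2.82) at the lower end.

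Other members of the CREB pathway on these arrays showed no genotype difference of the size of Creb1. Of 130 genes in 6 lists (relatives, coactivators, kinases, cAMP signalling, inhibitors and target genes), 52 had a probe set of their own and 40 were tested. The 130 and the 52 include Crem, which is also listed as a target gene and is not among the 40. Averaged over treatments 0 of 40 passed without the block by limma, beside 0.253% of all tested probe sets, and 2 of 40 passed with it, beside 2.32%. The unadjusted p was under 0.05 for 4 of 40, beside 410 of all 6334 probe sets. By the brightest probe set of each gene, their median difference was -0.0028 and their range -0.54 to 0.28, beside a median of -0.0026 over all tested probe sets, and Creb1 stood at 0.94. The third gene of the CREB subfamily, Atf1, was not analysed here.

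**Figure D4:**
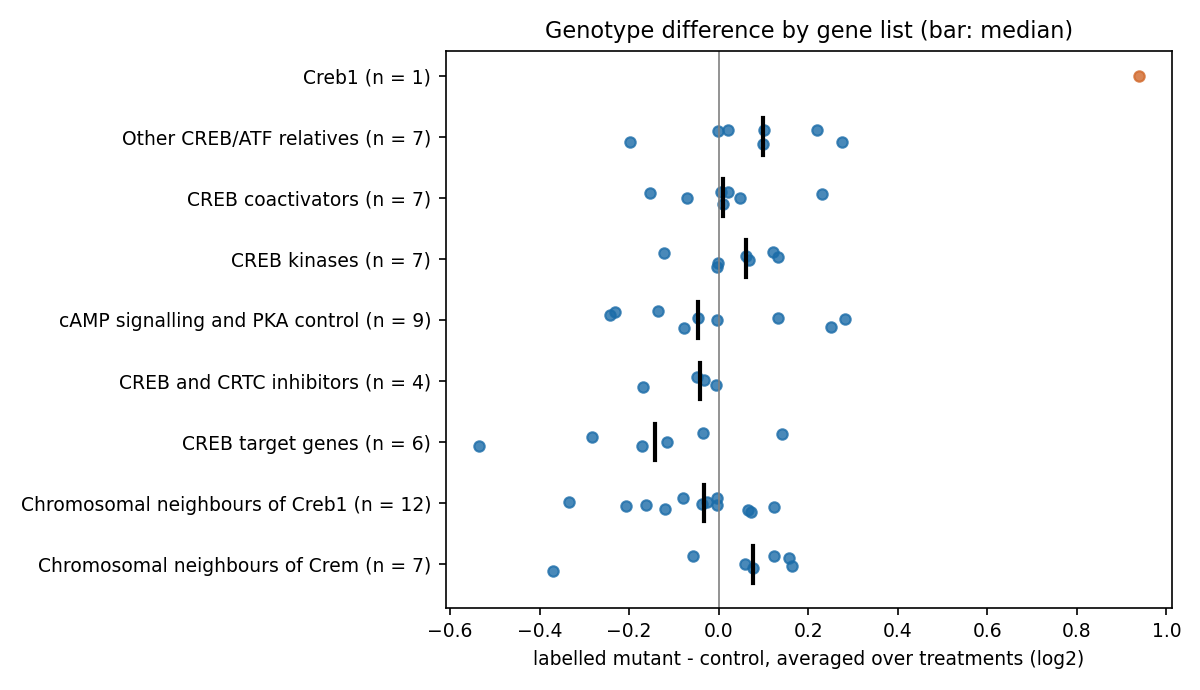
Labelled mutant minus control difference (log2, averaged over treatments) of each tested gene in the CREB lists and among the chromosomal neighbours of Creb1 and Crem, with a bar at each list's median. Creb1 lies at 0.94, and the other genes, each by its brightest probe set, lie between -0.54 and 0.28.

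Among 7 tested relatives of CREB and ATF the median genotype difference was 0.10 and 5 were above 0. Crebzf, a leucine zipper protein of the same superfamily, stood at 0.22 (SE 0.117), Creb3l2, a membrane-bound factor of the secretory pathway, at 0.28, and the endoplasmic reticulum stress sensor Atf6 at -0.20. None of these passed, with 0 of 7 at an unadjusted p under 0.05. Crebzf was lower after kainate averaged over genotypes (-0.49), a call made only with the block (limma adjusted p = 0.0376 against 0.124). Its other probe sets gave -0.07 and 0.04 there, so they did not share this value.

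The 7 tested coactivators had a median difference of 0.0089. The TFIID subunit Taf4 lay at 0.23, the CREB-regulated coactivator Crtc1 at -0.15 and the acetyltransferase p300 (Ep300) at -0.07. The CBP gene, Crebbp, gave 0.05 for its brightest probe set, and its other 3 tested probe sets gave 0.52, -0.04 and -0.06. For the coactivators 0 of 7 had an unadjusted p under 0.05.

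Of 7 tested genes in the list of CREB kinases, the median was 0.0614. The CaM kinase kinase Camkk2, which is listed there but acts on CaM kinases and not on CREB itself, stood at 0.13. It was higher in the labelled mutant array of 6 of 6 pairs, as were 4.45% of all tested probe sets. Camk2g stood at 0.12, Camk2d at 0.06 and the CREB kinase Camk4 at 0.07. The other tested probe sets of Camk2g gave -0.07 and -0.01 and that of Camk2d -0.10, whereas that of Camkk2 gave 0.19. Again 0 of 7 genes had an unadjusted p under 0.05. Of 9 genes of cAMP signalling and PKA control, 3 were above 0 and 1 had an unadjusted p under 0.05 by limma, the cAMP phosphodiesterase Pde4d. It stood at -0.23 (limma adjusted p = 0.622). The adenylate cyclase Adcy1 stood at -0.13 and the cAMP sensor Rapgef3 at 0.28.

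The 4 tested genes of the list of CREB or CRTC inhibitors lay at or below 0, with a median of -0.0405. The list joins inhibitors of either factor, and its calcineurin genes are not inhibitors of CRTC. The calcineurin subunit Ppp3cb stood at -0.17 (limma adjusted p = 0.69), and the CRTC kinases Sik2 and Sik3 at -0.05 and -0.03. For genotype the other tested probe sets of Sik3 gave -0.19, -0.15 and -0.24, and those of Ppp3cb -0.13 and 0.05. After kainate, averaged over genotypes, Ppp3cb (-0.20, adjusted p = 0.0478) and the second calcineurin gene Ppp3ca (-0.40, adjusted p = 0.032) were lower with the block only (0.228 and 0.102 without it). The second probe set of Ppp3ca was also lower with the block (-0.34, limma adjusted p = 0.0403), whereas the other probe sets of Ppp3cb stood at -0.11 and 0.0036.

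Of 41 listed CREB target genes, Crem included, 12 were on the array and 6 were tested, so the list is covered in small part. The orphan receptor gene Nr4a2 had values of 4.76, 5.26 and 5.10 in control saline and 5.61, 5.36 and 5.47 in control kainate arrays. In labelled mutant arrays they were 4.47, 4.88 and 4.46 with saline and 4.89, 4.83 and 4.82 with kainate. Its averaged genotype difference was -0.54 (SE 0.108, limma adjusted p = 0.0879, or 0.0311 with the block). Nr4a3, its paralog, differed by -0.28 (adjusted p = 0.381, or 0.0485 with the block). The neuropeptide precursor gene Vgf stood at -0.17, and Bcl2, a survival gene, at 0.14 was the 1 of 6 above 0. The median of the 6 was -0.14. Over all tested probe sets the median was -0.0026, and 49.1% were above 0.

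Vgf and Nr4a3 were the 2 target genes that rose with kainate averaged over genotypes, by 1.17 (limma adjusted p = 0.00411) and 0.51 (adjusted p = 0.0323), of 40 pathway genes tested and beside 0.41% of all probe sets. With 1 array left out at a time, Vgf passed in 12 of 12 fits (limma adjusted p up to 0.0232) and Nr4a3 in 3 of 12 (up to 0.131), with 0.47 to 0.56 as the range of its difference. Among the pathway genes, Vgf was the 1 called within the labelled mutant arrays (1.35, adjusted p = 0.0247), and it passed in 5 of 12 fits with an array left out (up to 0.163). In control arrays its difference was 1.00 (adjusted p = 0.216, or 0.0351 with the block). For the difference of responses Vgf gave 0.35 (adjusted p = 1) and Nr4a3 -0.06 (adjusted p = 1), so the responses were not found to differ.

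Genes beside Creb1 and Crem on their chromosomes were examined in the same way. Of the 20 genes with a probe set nearest to Creb1, 10 on each side, 12 were tested. Averaged over treatments 0 of these passed by limma, beside 0.253% of all tested probe sets. An unadjusted p under 0.05 was found for 1 of the 12, beside 410 of all 6334 probe sets. The median of the 12 genes was -0.03 (range -0.33 to 0.12). The transcription factor gene Klf7, directly before Creb1 among them, stood at 0.12, and its other 2 probe sets at 0.03 and 0.11. Mettl21a, directly after Creb1, was below the testing level. The imprinted gene Zdbf2 gave the lowest value (-0.33, limma adjusted p = 0.474), Adam23 stood at -0.21 and Map2, which encodes a dendritic microtubule protein, at -0.16. For Crem all 10 such genes lay on 1 side. Of 7 tested, 0 passed and 0 had an unadjusted p under 0.05, beside the same shares of all tested probe sets. The frizzled receptor gene Fzd8 stood at 0.08, Colec12 at 0.16 and Arhgap12 at -0.37 (its second probe set at -0.0056).

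The tested probe sets most like Creb1 over the 12 arrays, after the mean of each replicate number was subtracted, belonged to Mpp5, Tgfbr1, Frmd4a, Trps1 and Cav2. Their Pearson correlations with Creb1 were 0.958, 0.95, 0.943, 0.942 and 0.936, and Spearman's rho was between 0.895 and 0.951. The least alike were Snapc5 (-0.972), Kptn (-0.966) and Rell2 (-0.956). Over the 5924 probe sets compared, r lay between -0.664 at the 5th and 0.647 at the 95th percentile. All probe sets were measured over the same genotype and treatment groups, so these values are a description of a shared pattern. Averaged over treatments, the genotype difference was 0.217 for Mpp5, 0.455 for Frmd4a and 0.33 for Trps1. The TGF-beta receptor gene Tgfbr1 differed by 0.70 and Cav2, a caveolin, by 0.61. Kptn differed by -0.77, Rell2 by -0.94 and Snapc5 by -0.65. These probe sets were chosen by their correlation with Creb1, whose own values separate the genotypes. That choice largely fixes a genotype difference in advance, so no test of it is given.

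Among marker lists of 7 cell types, the astrocyte and microglia lists had higher mean log2 values in all 6 labelled mutant arrays than in all 6 control arrays, with 1 gene called without the block. The mean log2 value of 9 astrocyte markers (of 14 listed) lay between 9.51 and 9.63 in control and between 9.75 and 9.94 in labelled mutant arrays, with all 9 genes above 0 in the averaged difference (median 0.23), beside 49.1% of all tested probe sets. The linear sum of these markers ran from 15510 to 16490 in control and from 17810 to 19240 in labelled mutant arrays. For 4 microglia markers (of 12 listed) the mean log2 value lay between 5.50 and 5.88 in control and between 5.89 and 6.57 in labelled mutant arrays. Their linear sum, from 214.1 to 264.2 and from 261.7 to 386.7, overlapped. Of these genes Plek passed without the block (1.24, limma adjusted p = 0.042, and in 3 of 12 fits with an array left out, up to 0.125), and 3 of 9 astrocyte and 3 of 4 microglia genes passed with it. Of all tested probe sets 0.253% passed without the block and 2.32% with it. The lists were written with earlier results of these data known, so these counts describe the listed genes and are no independent test.

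Of 4 principal neuron markers (of 12 listed), Bcl11b differed by -0.84 averaged over treatments (limma adjusted p = 0.0557, or 0.00319 with the block). Fibcd1 differed by -0.61 (limma adjusted p = 0.101, or 0.0328 with the block). Neurod2 stood at -0.40 and did not pass either way (limma adjusted p = 0.928, or 0.27 with the block). Slc17a7, the glutamate transporter gene of principal neurons, stood at 0.0066. Bcl11b had 2 more probe sets, at -0.16 and -0.46. Slc17a7 lay between 10.5 and 10.9 on the 12 arrays, well above the testing level in this hippocampal tissue. The mean of these 4 genes lay between 8.63 and 9.10 in control and between 8.12 and 8.74 in labelled mutant arrays, and their linear sum ran from 2269 to 2875 and from 2072 to 2622. For interneuron (3 of 12 tested), oligodendrocyte (2 of 12), endothelial (3 of 8) and choroid plexus (1 of 10) markers the ranges of control and labelled mutant arrays overlapped, and 0 of these genes passed in the averaged genotype comparison by limma. The part of cell type content in the Creb1 difference was not tested. The marker lists were written with earlier results of these data known.

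**Figure D5:**
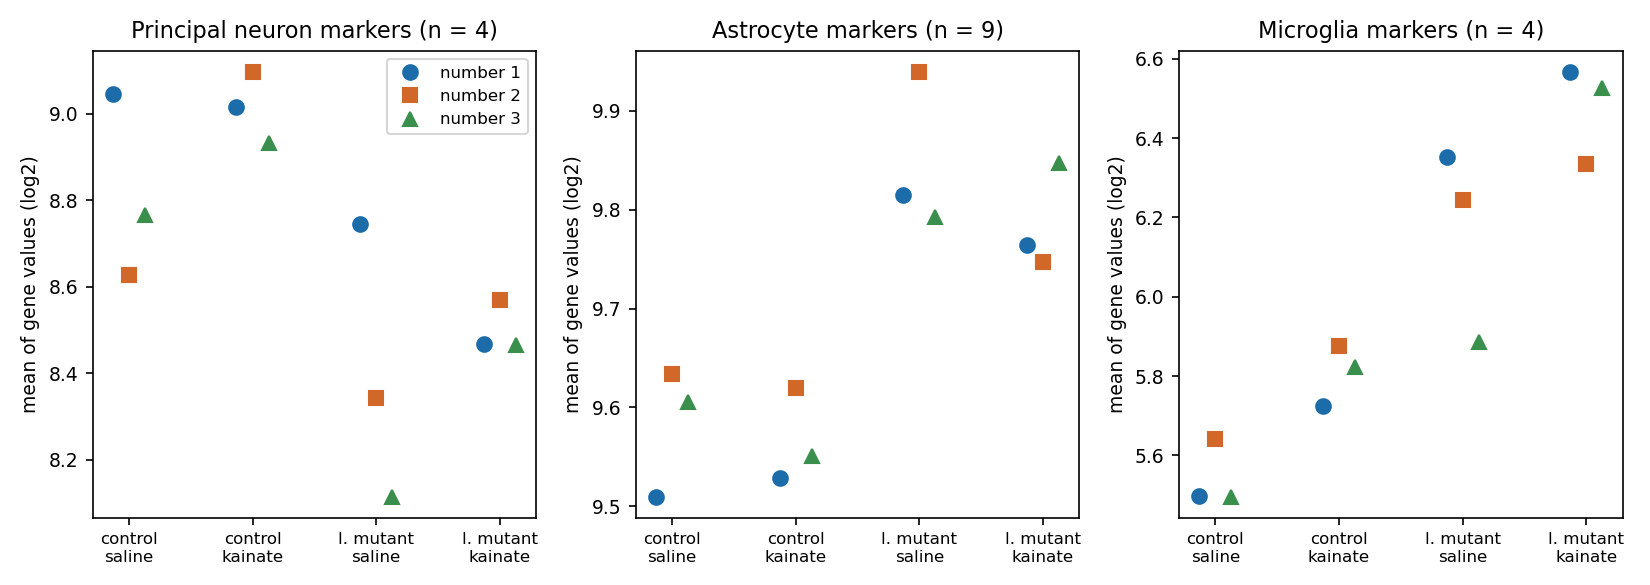
Mean log2 value of the tested principal neuron (4 genes), astrocyte (9 genes) and microglia (4 genes) markers on each array by group, with the symbol showing the replicate number and l. mutant for labelled mutant. Astrocyte and microglia means of all 6 labelled mutant arrays lie above those of all 6 control arrays, and principal neuron means overlap.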

How the data were processed

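The deposited values were log2 signals per probe set. The authors used GCRMA and R 2.4.1 according to the submitters' processing notes. The log2 scale was judged from the values. GCRMA settings and the annotation used were not given in the sources used here. Of 12477 entries 66 control probe sets were left out. All columns were used. Probe sets were named by the platform annotation.

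The 12 arrays entered 1 linear model of group means (limma 3.58.1, R 4.3.3, eBayes with intensity trend), from which 7 comparisons were taken. Benjamini-Hochberg adjustment at 0.05 covered each probe set that exceeded 4 on 3 or more arrays. Crem was fitted without this filter. Exact permutation tests shuffled genotype within treatment or treatment within genotype. Where a gene had several probe sets, the one with the highest mean stands for it. The calculations were tested on simulated data. The number of arrays limits the precision. Replicates are biological per the labels, each a pool of 3 animals.

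Replicate numbers were taken as pairing the arrays. Deviations from group means correlated in 18 of 18 same-numbered pairs (r from 0.361 to 0.881), and 12 of 12 arrays correlated best with their own number. What a number marks is not in the labels, and blocked values stand beside results whose call they change.

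The members and lists were chosen with earlier results of these data known. Named were both members, list genes or neighbours that passed in any comparison, the 3 of each list with the smallest p for genotype, and the 5 most and 3 least correlated with Creb1. Others (Crebbp, Camk4, Ppp3ca, Klf7 and marker genes) were named after their values were seen. Alternatives were the block, quantile normalization, median centring, other filters and variance models, and leaving out arrays. Upstream bases are from RefSeq (GRCm38.p6), and motifs were searched on both strands.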

Additional observations from a re-analysis of the deposited data

Results flagged for a closer look

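Sik3, a kinase that holds back CRTC coactivators, had genotype differences of opposite sign with each treatment in all 3 replicate numbers, with a mean of -0.201 with saline and 0.135 after kainate. These means differ by 0.335, which did not pass the limma test of the difference of responses (adjusted p = 1, or 0.553 with the block). Sik3 had 3 other tested probe sets, which gave -0.24, -0.29 and -0.48 with saline and -0.14, -0.0012 and 0.0056 after kainate, so they did not show the higher value after kainate.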

How the results depend on the processing

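The averaged Creb1 genotype difference kept its direction in all alternatives run. It passed the threshold with the replicate block (0.94), with the block and quantile normalization (0.95, adjusted p = 0.00677), with quantile normalization (0.95, 0.0329), with a level of 5 (0.94, 0.0443), without the intensity trend (0.94, 0.0475) and in replicates 2 and 3 alone (0.89, 0.0211). It did not pass with median centring (limma adjusted p = 0.0896), without the filter (0.0781) or with robust eBayes (0.0532), and the limma adjusted p ran from 0.0563 to 0.146 in the 12 fits that left out 1 array (0.82 to 1.02). The cause was not tested. The Creb1 difference of kainate responses, not called, turned to -0.13 in replicates 2 and 3 alone and ran from -0.14 to 0.31 with 1 array left out. The permutation value for kainate on Creb1 ran from -0.43 to -0.23 with 1 array left out. The averaged Crem genotype difference, near 0, turned to 0.0015 with median centring (limma and permutation) and 0.018 in replicates 2 and 3 alone, and ran from -0.047 to 0.048 with 1 array left out. The Crem kainate difference in labelled mutant arrays ran from -0.10 to 0.0399 with 1 array left out. Filters could not be varied for Crem.

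With the block, 2 of 40 CREB list genes were called for genotype averaged, 2 for kainate in control and 5 for kainate averaged. The shares of all tested probe sets were 2.32%, 0.584% and 7.63%. Without the block the counts were 0, 0 and 2, beside 0.253%, 0.158% and 0.41%. Of the 12 tested neighbours of Creb1 and 7 of Crem, 3 were called for kainate averaged with the block, beside the same 7.63%, and 0 without it. The block changed no other call of a member. Probe sets called for genotype averaged were 16, against 147 with the block, 126 with the block and quantile normalization, 25 with quantile normalization, 10 with centring and 46 in replicates 2 and 3 alone, and 3 to 16 with 1 array left out (3 without control saline replicate 3, labelled mutant saline replicate 2 or labelled mutant kainate replicate 3). For kainate averaged they were 26, against 483, 384 with the block and quantile normalization, and 1412 in replicates 2 and 3 alone, and 14 to 243 with 1 array left out (243 without labelled mutant kainate replicate 1, and 39 or fewer otherwise). For genotype with saline they ran from 0 to 9, after kainate from 0 to 12, for kainate in control from 4 to 637 and in labelled mutant from 2 to 596 over all alternatives. With median centring Nr4a3 after kainate (0.46, adjusted p = 0.147), Vgf in labelled mutant (1.39, 0.0739) and Plek (1.24, 0.0782) no longer passed, nor did Nr4a3 without the filter (0.0719), Vgf in labelled mutant with only the 6 arrays compared (0.328) and Plek in replicates 2 and 3 alone (0.072). The alternatives for these genes were chosen after seeing the data. The 3 arrays a group limit what can be called.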
